A study of Mus musculus with 12 samples.

Results

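Heat shock proteins and chaperones were followed in skeletal muscle of mice labelled as lacking dysferlin and of controls. The 8 genes were Cryab, Hspb8 and Hspb1 (small heat shock proteins), Hspa8 and Hspa5 (HSP70 family), Hsp90aa1 and Hsp90b1 (HSP90 family) and Dnaja1 (a J-domain protein). All probe sets whose annotation gave 1 of these symbols were taken, which came to 11 of 12422 (8 of 8251 named genes). The genes were chosen by measured differences between the groups on these same arrays, among them the lower Cryab and Hspb8 in TA, so their values and calls are given as a description and no p-value is printed for them. Of the 11 probe sets, 10 (7 genes) lay above the floor on at least 3 arrays. The remaining one, the single probe set of Hspb1, was at the floor on all 12 arrays, so no difference could be measured for that gene.

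Total RNA had been hybridised to 12 single-channel arrays, 3 in each of 4 groups of mice aged 3 weeks. Dysf_null_TA and Dysf_null_QF came from C57BL/10-SJL.Dysf mice, labelled Dysf -/-, and Control_TA and Control_QF from C57BL/10 mice, labelled Dysf +/+. From knowledge of the study, TA is the distal tibialis anterior muscle and QF the proximal quadriceps femoris, and the title asks how dysferlin deficiency alters the difference between them. The mutant allele is that of the SJL strain, present in all cells of the animal. Dysferlin is needed for resealing of the muscle fibre's membrane, and it was not analysed here as a transcript. The labels do not state whether each array of a group is another mouse, so errors measure the spread between arrays, which may be partly technical.

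Chaperones bind unfolded proteins and help them to fold, be held in solution or be degraded. In striated muscle, the small heat shock proteins alphaB-crystallin (Cryab) and Hspb8 sit at the Z-disc, where they protect desmin, filamin and titin, and Hspb8 acts together with the co-chaperone BAG3 in the removal of damaged filamin. Hspa8 is the constitutive HSP70 of the cytosol, Dnaja1 a J-domain partner that stimulates it, and Hsp90aa1 the inducible cytosolic HSP90. Hspa5 (BiP) and Hsp90b1 (GRP94) are their relatives in the endoplasmic reticulum (ER), and both are known targets of the unfolded protein response, which acts on promoters through the ER stress response element (ERSE).

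Promoters were available for 5 of the 8 genes in the RefSeq table (GRCm38.p6), as 250 bases before to 50 after a start site. The promoters of Hspa5 and Hsp90b1 are shown because both genes had higher levels in Dysf_null QF than in Control QF and both hold the ERSE, searched on both strands as CCAAT and CCACG with 9 bases between them. The fixed letters of the element are in capitals. Hspa5 lies at chr2:34771840-34772139 on the + strand and Hsp90b1 at chr10:86705395-86705694 on the - strand, each printed 5′ to 3′ along its own gene.
Hspa5: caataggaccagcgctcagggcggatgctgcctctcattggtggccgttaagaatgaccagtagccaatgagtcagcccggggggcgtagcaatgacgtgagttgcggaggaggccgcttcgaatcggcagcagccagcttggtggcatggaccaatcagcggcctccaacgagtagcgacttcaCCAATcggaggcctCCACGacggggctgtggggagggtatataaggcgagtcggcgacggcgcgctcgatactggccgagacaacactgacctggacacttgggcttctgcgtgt
Hsp90b1: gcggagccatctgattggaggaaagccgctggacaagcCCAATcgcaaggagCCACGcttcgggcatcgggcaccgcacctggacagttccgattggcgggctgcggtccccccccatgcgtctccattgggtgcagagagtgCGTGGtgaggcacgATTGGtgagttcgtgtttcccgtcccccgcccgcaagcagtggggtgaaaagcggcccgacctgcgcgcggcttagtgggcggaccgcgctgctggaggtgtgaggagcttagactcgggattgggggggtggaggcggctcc

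The Hspa5 promoter held the element once, beginning at position -65 from the start site. The Hsp90b1 promoter held it on each strand, beginning at positions -212 and -107. Of all 32851 promoters in the table, 39 held it (0.119%). Of the 19 promoters of other ER chaperone and unfolded protein response genes, 5 did, those of Calr, Canx, Creld2, Dnajc3 and Pdia6. The heat shock element was searched as the dyads GAANNTTC and TTCNNGAA, each its own reverse complement, which 15.1% of all promoters held. Among the members a dyad was found for Hspb1 at 2 places, for Dnaja1 in 1 of its 3 promoters, and for Hspb8 beginning at position 3. A longer form of the heat shock element, of 3 units where a dyad has 2, was also searched. It was held by 0 of the 7 member promoters and by 0.603% of all promoters. No binding was measured, and the matches describe letters in these windows.

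All values below are log2 intensities after quantile normalization, with a floor at 4.53. Differences are on the same scale, each with its standard error (SE) from limma. A probe set was called at a Benjamini-Hochberg adjusted p under 0.05 over all 10331 probe sets tested. The replicate block, an alternative fit, pairs arrays of the same number within a muscle. The labels do not state that pairing, which was taken from these same values. Paired arrays deviated together less in TA (correlations 0.114 to 0.231) than in QF (0.390 to 0.711). The error of the block fit is drawn from both muscles, so its p-values in TA depend on the pairing in QF too. The 2 QF arrays numbered 2 stood apart: each array's median correlation with the rest was 0.876 (Dysf_null) and 0.866 (Control) for these, and 0.926 to 0.959 for the others. The 3′ to 5′ signal ratio of the Gapdh control probe sets lay between 0.779 and 0.966 on all 12 arrays. All 9 skeletal muscle fibre markers, among them Ckm, Acta1 and Mb, lay above the floor on all 12 arrays, and none was called between genotypes in TA or QF. Fewer cells of a type and less RNA per cell cannot be told apart in whole muscle.

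In TA, the small heat shock proteins Cryab and Hspb8 were lower in Dysf_null than in Control mice, Cryab by more than any other member. Where a gene had 2 probe sets, values are those of the brighter one unless stated. Cryab (its brighter probe set, chromosome 9) had log2 levels of 10.06, 9.98 and 9.63 in Dysf_null TA, against 11.49, 11.08 and 11.33 in Control TA. Each Dysf_null array lay more than 1 log2 unit below each Control array. The difference was -1.41 ± 0.14 (SE, n = 3 each), a level 2.66-fold lower. The call held in all 21 alternative settings, with differences between -1.52 and -1.28.

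Hspb8 (its brighter probe set, chromosome 5), which works with BAG3, had levels of 11.01, 10.77 and 10.92 in Dysf_null TA, against 11.61, 11.55 and 11.62 in Control TA. The groups did not overlap, and the 3 Control arrays lay within 0.1 of each other. The difference was -0.70 ± 0.13, a level 1.62-fold lower. This call was lost when any 1 of the 6 TA arrays was left out, and in 10 of 21 settings in all, although the difference stayed between -0.81 and -0.63 in all settings.

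The remaining members in TA fell on both sides of 0. Hspa8 had levels of 11.31, 10.74 and 10.87 in Dysf_null TA, against 10.76, 10.52 and 10.07 in Control TA, and the lowest Dysf_null array lay just under the highest Control array (difference 0.52 ± 0.21, and 0.33 without Control_TA 3). Dnaja1 had levels of 9.09, 9.14 and 9.03 in Dysf_null TA and 8.59, 8.53 and 8.79 in Control TA, with no overlap (0.45 ± 0.24). Both of these partners in the cytosolic HSP70 cycle thus had positive differences, while the SE of Dnaja1 was drawn from all 4 groups and is wider than its spread in TA. Hspa5 (-0.17 ± 0.16), Hsp90aa1 (-0.11 ± 0.32) and Hsp90b1 (0.03 ± 0.18) differed by about their SE or less.

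Of the 10 measured member probe sets 2 were called in TA, both lower, against 0.407% of all probe sets called either way and 0.155% called lower. The median difference of the 10 was -0.07, against -0.0027 over all probe sets tested. Groups did not overlap for 4 of the 10 (13.8% of all probe sets), 3 of them lower (6.87%) and 1 higher (6.92%), and 3 had an unadjusted p under 0.05. Since the genes were picked with differences between the groups in view, nothing is read from these shares. The same holds for the member shares given below for QF, for the interaction and between muscles.

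**Figure D1:**
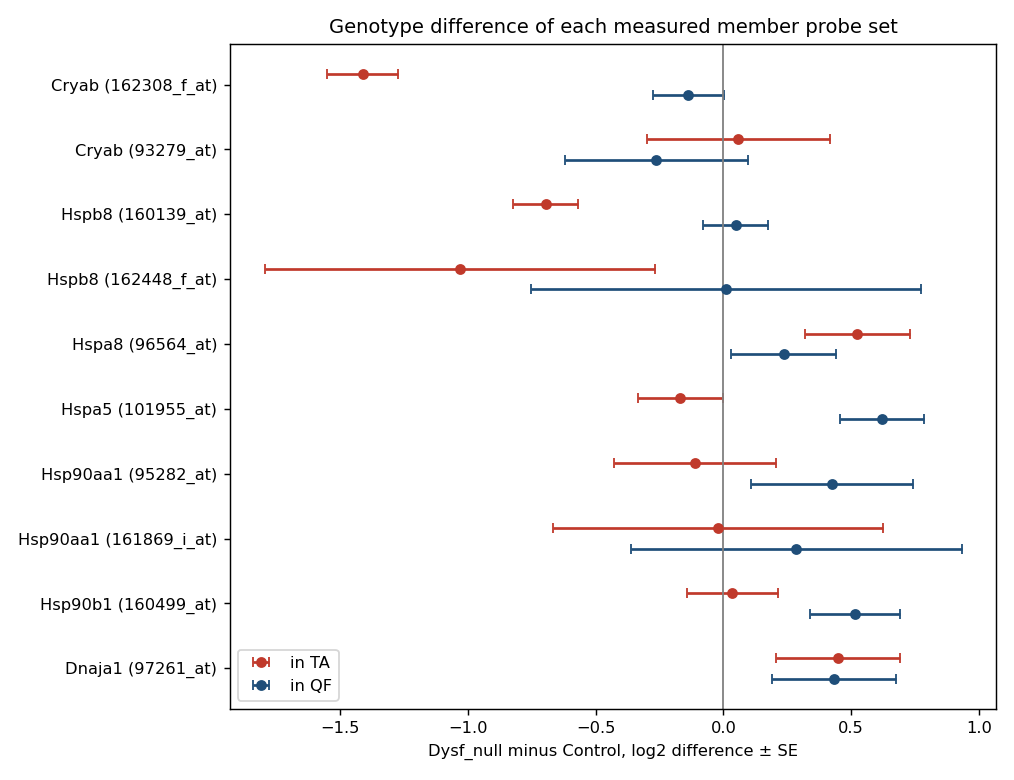
Genotype difference (Dysf_null minus Control, log2 scale, x axis) of each of the 10 measured member probe sets, in TA (red) and QF (blue), with bars of 1 SE from the limma fit. The brighter Cryab probe set lies at -1.41 in TA and -0.14 in QF, whereas Hspa5 lies at -0.17 in TA and 0.62 in QF.

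In QF, Cryab and Hspb8 differed little between genotypes, and the ER chaperones Hspa5 and Hsp90b1 had positive differences that passed only with the replicate block. Hspa5 (chromosome 2) had levels of 10.74, 10.20 and 10.58 in Dysf_null QF, against 9.83, 9.72 and 10.11 in Control QF. The groups did not overlap, and array 2 was the lowest of both genotypes. The difference was 0.62 ± 0.16, a level 1.54-fold higher.

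Hsp90b1 (chromosome 10) had levels of 9.84, 10.22 and 9.50 in Dysf_null QF, against 9.35, 9.55 and 9.11 in Control QF. The groups overlapped, but each Dysf_null array lay above the Control array of the same number, with array 2 the highest and array 3 the lowest in both genotypes. The difference was 0.52 ± 0.18, a level 1.43-fold higher, and it was 0.34 without Dysf_null_QF 2.

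Cryab had levels of 9.83, 9.75 and 9.81 in Dysf_null QF and 9.92, 9.98 and 9.90 in Control QF. These groups did not overlap either, but the difference was small, -0.14 ± 0.14, with a 95% interval from -0.44 to 0.16. Hspb8 had levels of 11.33, 11.12 and 11.00 in Dysf_null QF and 11.26, 11.16 and 10.89 in Control QF, which overlapped throughout (0.05 ± 0.13, interval -0.23 to 0.32). Hspa8 (0.24 ± 0.21), Dnaja1 (0.43 ± 0.24) and Hsp90aa1 (0.43 ± 0.32) had positive differences with overlapping groups.

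None of the 10 member probe sets was called in QF by limma, where 0.455% of all probe sets were, and 2 had an unadjusted p under 0.05. The median member difference was 0.26, against -0.01 over all probe sets. Groups did not overlap for 2 of the 10 (7.53% of all probe sets), Hspa5 higher (4.08%) and Cryab lower (3.45%). With replicate number as a block inside each muscle, Hspa5 and Hsp90b1 were called higher in QF. That was 2 of 10, against 2.64% of all probe sets called with the block, 1.68% higher and 0.958% lower. Both the members and the pairing were chosen from these same arrays, so this share is a description. In TA the block called 2 members, Cryab and Hspb8, both lower (1.54% of all probe sets were called, 0.920% higher and 0.619% lower). Without both QF arrays numbered 2, no member was called in QF.

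The genotype difference of Cryab was larger in TA than in QF. Taken as the difference in TA minus that in QF, it was -1.27 ± 0.20 for Cryab, -0.74 ± 0.18 for Hspb8 and -0.79 ± 0.23 for Hspa5. Of the 10 member probe sets 1, Cryab, was called for this interaction, against 0.0678% of all probe sets (0.0290% higher and 0.0387% lower). With the replicate block Hspb8 was called as well (2 of 10, against 0.310% of all, 0.165% higher and 0.145% lower). The Cryab call for the interaction was kept in 5 of 20 alternative settings and lost in 15, with differences between -1.38 and -1.15 in all of them. It was lost without either of Control_TA 1 and 3, either of Dysf_null_TA 2 and 3, or any single QF array.

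Between the muscles of Control mice, Cryab was higher in TA than in QF. Its levels of 11.49, 11.08 and 11.33 in Control TA stood against 9.92, 9.98 and 9.90 in Control QF (1.37 ± 0.14, 2.58-fold higher). Hspb8 was 0.49 ± 0.13 higher in Control TA and Hspa5 0.63 ± 0.16 higher, both with no overlap, while Hspa8 was 0.63 ± 0.21 lower, also with no overlap. Of the 10 member probe sets 1 was called, Cryab (higher), against 0.736% of all probe sets (0.407% higher and 0.329% lower), and it was called in all 20 alternative settings. Groups did not overlap for 4 of the 10 (13.8% of all), 3 of them higher (8.16%) and 1 lower (5.60%).

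In Dysf_null mice, TA and QF overlapped for all 10 member probe sets, and limma called none (0.300% of all probe sets were called, 0.0968% higher and 0.203% lower, and 10.2% did not overlap). No member had an unadjusted p under 0.05. Cryab differed by 0.09 ± 0.14 (interval -0.21 to 0.40) and Hspb8 by -0.25 ± 0.13 (interval -0.53 to 0.02). Cryab averaged 9.89 ± 0.23 in Dysf_null TA and 11.30 ± 0.20 in Control TA, and 9.80 ± 0.04 in Dysf_null QF and 9.93 ± 0.04 in Control QF (SD, n = 3 each). In order of level, Control TA stood highest, and the means of both QF groups lay within 1 SD of that of Dysf_null TA. The comparison of genotypes in TA and that of muscles in Control mice use the same Control_TA arrays, so the 2 Cryab differences are not independent.

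Hspb8 averaged 10.90 ± 0.12 in Dysf_null TA and 11.59 ± 0.04 in Control TA, and 11.15 ± 0.17 in Dysf_null QF and 11.10 ± 0.19 in Control QF. Control TA was again the highest group, and the other 3 overlapped with their neighbours in the order. Hspa5 averaged 10.36 ± 0.19 in Dysf_null TA and 10.52 ± 0.15 in Control TA, and 10.51 ± 0.28 in Dysf_null QF and 9.89 ± 0.20 in Control QF. Its Control QF group stood lowest, and the other 3 lay within their spread of each other. Hspa8 averaged 10.97 ± 0.30 in Dysf_null TA and 10.45 ± 0.35 in Control TA, and 11.31 ± 0.19 in Dysf_null QF and 11.08 ± 0.28 in Control QF. Control TA was its lowest group, Dysf_null QF its highest, and neighbours in the order overlapped.

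Probe sets of one gene disagreed for Cryab and for Hsp90aa1. The dimmer Cryab probe set lay between 4.53 and 5.91 on all 12 arrays, at or little above the floor, and gave 0.06 ± 0.36 in TA, so the difference in TA rests on 1 probe set alone. That probe set carries the suffix _f_at, which marks probes that may be shared with similar sequences, as does the dimmer one of Hspb8. For Hspb8, the dimmer probe set pointed the same way as the brighter one in TA, with levels of 6.34, 6.70 and 6.33 in Dysf_null TA against 7.49, 7.70 and 7.27 in Control TA (-1.03 ± 0.76). Its QF arrays spread widely: both numbered 2 lay at 4.76 (Dysf_null) and 4.53 (Control), against 7.11 to 7.65 on the other 4 QF arrays.

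For Hsp90aa1, the dimmer probe set was high on these arrays, at 7.03 (Dysf_null) and 6.84 (Control) on the QF arrays numbered 2 and between 4.53 and 5.34 on the other 10. The brighter Hsp90aa1 probe set was above the floor on all 12 arrays, between 8.19 and 9.55. It was highest on array 3 in each of the 4 groups. Between muscles the 2 probe sets had opposite signs: TA minus QF was 0.20 ± 0.32 (brighter) and -0.85 ± 0.65 (dimmer) in Dysf_null mice, and 0.74 ± 0.32 and -0.54 ± 0.65 in Control mice. Without the QF array numbered 2, the dimmer one gave -0.14 in Dysf_null and 0.21 in Control mice.

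**Figure D2:**
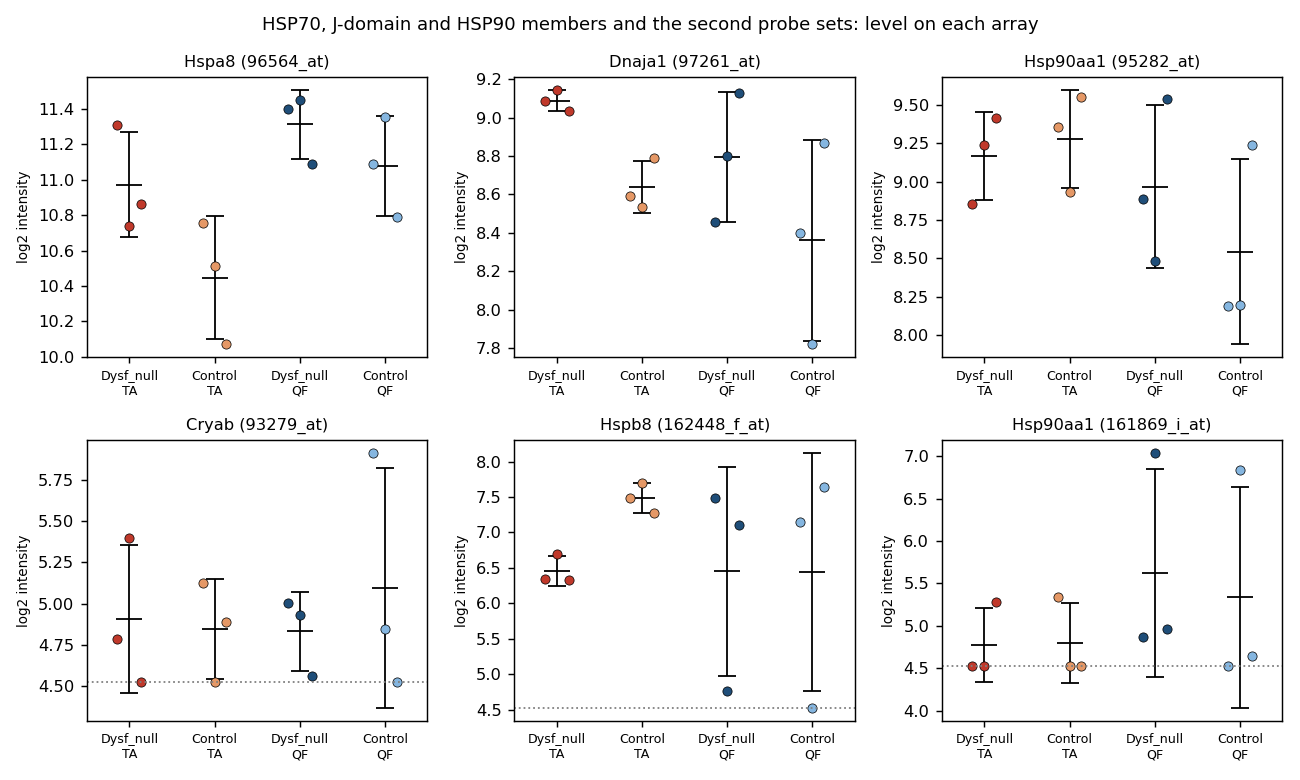
Log2 intensity (y axis, range set per panel) on each array of the cytosolic members Hspa8, Dnaja1 and Hsp90aa1 and of the further probe sets of Cryab, Hspb8 and Hsp90aa1, by group, with mean and SD (n = 3) in black and the floor as a dotted line. The dimmer Hspb8 probe set is near the floor on both QF arrays numbered 2, and the dimmer Hsp90aa1 probe set is high there.

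Other chaperone genes were listed by family. Of 83 listed genes the array covered 67, and 90 probe sets of 64 genes were measured. In TA, none of the 90 was called by limma (0.407% of all probe sets were called), 9 had an unadjusted p under 0.05, and 58 had a negative difference. With the replicate block 4 of 90 were called, against 1.54% of all probe sets: Hspb2 and both probe sets of Bag3 fell and Serpinh1 rose. With array weights 6 were called, against 1.86% of all probe sets, these 4 together with Fkbp5 (-0.88 ± 0.22, limma adjusted p = 0.211) and Hspa9.

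Hspb2, a small heat shock protein of heart and skeletal muscle and the neighbour of Cryab on chromosome 9, had levels of 8.95, 8.93 and 8.83 in Dysf_null TA, against 9.73, 9.82 and 9.76 in Control TA (its dimmer probe set, the 1 called with the block). The groups did not overlap (difference -0.86 ± 0.25, limma adjusted p = 0.374, and 0.0016 with the replicate block). Its brighter probe set gave -0.40 ± 0.23 in TA, also without overlap. In QF the dimmer probe set spread widely within each genotype, and the difference was -0.06 ± 0.25. Its QF arrays 1 to 3 ran in the same order in Dysf_null (9.55, 9.03 and 8.68) and Control mice (9.67, 9.11 and 8.64). The block takes that QF spread out of an error shared with TA, where the SE was 0.09 with the block. The smaller p-value in TA thus does not measure the spread in TA alone. The remaining probe set of the small heat shock protein list, of the lens crystallin gene Cryaa, lay near the floor.

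Bag3, the co-chaperone of Hspb8, had levels of 9.11, 9.23 and 9.23 in Dysf_null TA, against 9.90, 9.56 and 9.87 in Control TA (its brighter probe set). The difference was -0.59 ± 0.15 (limma adjusted p = 0.211, and 0.0334 with the replicate block). The dimmer Bag3 probe set gave -0.54 ± 0.15 (adjusted p = 0.374, and 0.0375 with the block). In Control mice the dimmer one was 0.55 ± 0.15 higher in TA than in QF (limma adjusted p = 0.177), and the brighter one 0.33 higher (limma adjusted p = 0.492). Control TA thus had the highest group mean for Hspb8, Hspb2, Bag3 and the brighter Cryab probe set. These genes were named with their differences in TA known, so a high Control TA follows in part from that choice. The dimmer Cryab probe set, near the floor, had its highest mean in Control QF.

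**Figure D3:**
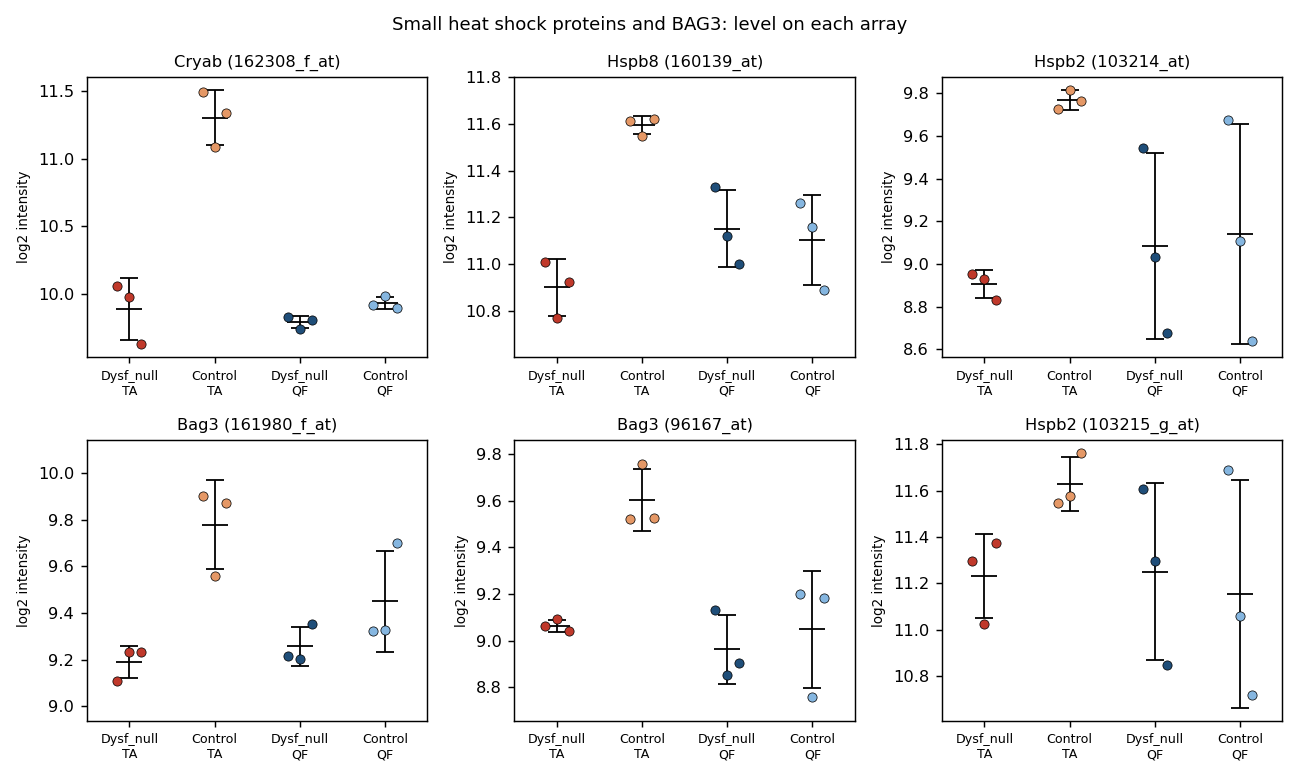
Log2 intensity (y axis, range set per panel) of Cryab, Hspb8, Hspb2 and Bag3 on each array, by group (x axis), with mean and SD (n = 3) in black. For each of the 6 probe sets shown, all 3 Dysf_null TA arrays lie below all 3 Control TA arrays, and the QF groups overlap or lie close together. The genes were plotted with their differences in TA known.

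Some further HSP70-system genes, picked after their values were seen, gave differences in both directions in TA. The inducible HSP70 genes Hspa1a and Hspa1b, near-identical copies whose signals may be mixed, gave 0.37 ± 0.31 and 0.27 ± 0.32, and their J-domain partner Dnajb1 gave 0.55 ± 0.46 (limma adjusted p = 1 for all 3). The HSP110 gene Hsph1 gave -0.37 ± 0.16 (adjusted p = 0.965) and the mitochondrial HSP70 Hspa9 gave -0.32 ± 0.11 (adjusted p = 0.673). Of 13 HSP70 and HSP110 probe sets 9 had a negative difference (median -0.32), and of 14 chaperonin probe sets 12 did (median -0.23), none of them called.

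In QF, 2 of the 90 other chaperone probe sets were called (against 0.455% of all), the collagen chaperone gene Serpinh1, which rose, and the glucocorticoid-responsive co-chaperone gene Fkbp5, which fell. Serpinh1 had levels of 10.80, 10.65 and 10.70 in Dysf_null QF, against 9.65, 9.35 and 9.52 in Control QF. The groups were far apart, with no overlap (1.21 ± 0.15, limma adjusted p = 0.00452). That call was lost without the intensity trend (adjusted p = 0.0547) and with the QF arrays fitted alone (adjusted p = 0.0512). Fkbp5 had levels of 7.97, 7.63 and 7.70 in Dysf_null QF and 8.77, 8.98 and 9.16 in Control QF (-1.20 ± 0.22, limma adjusted p = 0.0314), a call lost in 16 of 21 settings and without any single QF array.

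With the replicate block, 4 of 90 were called in QF, against 2.64% of all probe sets: these 2 and the ER genes Manf and Pdia6, which rose. Manf, a secreted ER stress-responsive factor, had levels of 8.003, 8.68 and 8.54 in Dysf_null QF, against 7.24, 7.55 and 7.88 in Control QF (0.85 ± 0.23, limma adjusted p = 0.183, and 0.0113 with the block). Pdia6, an ER disulfide isomerase, had levels of 6.33, 5.92 and 6.29 in Dysf_null QF on its dimmest probe set, against 4.53, 4.53 and 5.31 in Control QF. The floor on 2 Control arrays limits that difference (1.39 ± 0.33, adjusted p = 0.121, and 0.0352 with the block). The other Pdia6 probe sets gave 0.76 ± 0.23 (adjusted p = 0.311) and 0.26 ± 0.24 (adjusted p = 0.988). Atf4, a transcription factor of the stress response, gave -0.35 ± 0.13 (adjusted p = 0.507).

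Of 28 probe sets for ER chaperones and the unfolded protein response, 19 had a positive difference in QF (median 0.14, against -0.01 over all probe sets) and 14 in TA (median -0.02). Of the other genes with an ERSE, Canx and Dnajc3 each had probe sets with higher and with lower means in Dysf_null than in Control QF. Creld2 and all Pdia6 probe sets had higher means there, and Calr was not above the floor on enough arrays. In TA, Manf gave 0.01 ± 0.23 and Serpinh1 0.61 ± 0.15 (adjusted p = 0.199, and 0.0077 with the block). Between muscles in Control mice, Manf was 0.98 ± 0.23 higher in TA (adjusted p = 0.0844), Serpinh1 0.53 ± 0.15 (0.191) and Pdia6 0.98 ± 0.33 (dimmest probe set, 0.324). Manf and Hspa5 thus shared a low Control QF group. Both were named with their differences between the groups in view, so this is a description. Atf4, of the same ER list as Manf, had its highest group mean in Control QF.

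**Figure D4:**
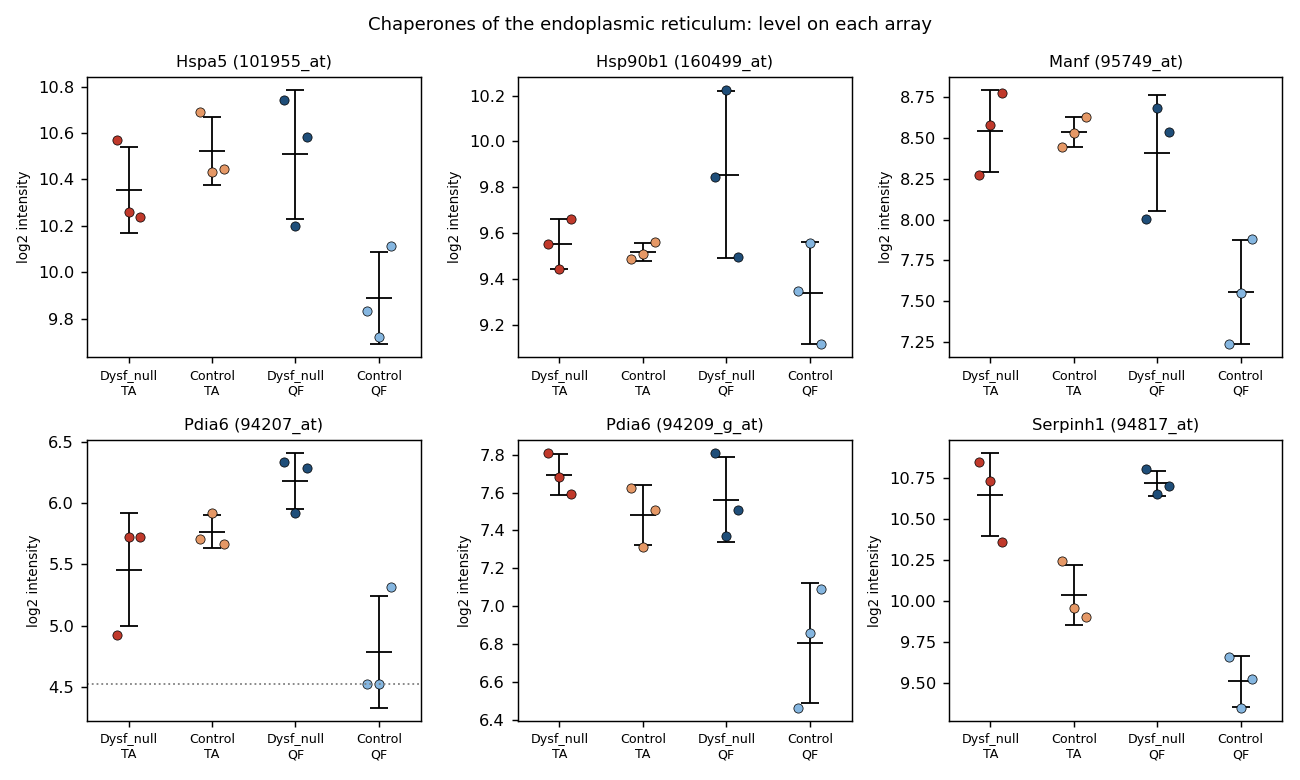
Log2 intensity (y axis, range set per panel) of the ER chaperones Hspa5 and Hsp90b1, of Manf, of 2 Pdia6 probe sets and of Serpinh1 on each array, by group (x axis), with mean and SD (n = 3) in black and the floor as a dotted line where it falls in the panel. Control QF has the lowest mean in all 6 panels, and Serpinh1 is at 10.65 or above on the 3 Dysf_null QF arrays. The probe sets were plotted with their differences in QF known, so the low Control QF is a description only.

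For the difference between the genotype effects in TA and in QF, limma called none of the 90, and 7 had an unadjusted p under 0.05. With the replicate block Hspb2 was called (-0.81 ± 0.35 without the block, adjusted p = 1 without and 0.036 with it). Pdia6 (-1.70 ± 0.47, dimmest probe set, adjusted p = 0.782), Manf (-0.85 ± 0.32), Serpinh1 (-0.60 ± 0.21) and the chaperonin subunit gene Cct7 (-0.81 ± 0.30) had the smallest limma p-values without the block, the last 3 at an adjusted p of 1. Between the muscles limma called none of the 90 in Control mice (16 at an unadjusted p under 0.05) and none in Dysf_null mice (4). In Control mice 20 of the 90 were higher in TA with no overlap between groups (8.16% of all probe sets) and 1 was lower (5.60%), and in Dysf_null mice 5 were higher (5.71%) and 7 lower (4.51%). The smallest p-values in Dysf_null mice were those of the J-domain genes Dnajb5 (1.38 ± 0.56, adjusted p = 0.79), Dnajc3 (-1.07 ± 0.44, 0.811) and Dnajc7 (0.44 ± 0.19, 0.825), and of Pdia6 (-0.72 ± 0.33, 0.872). Without Dysf_null_QF 2, which lay at the floor for Dnajb5, the difference of Dnajb5 was 0.62 and that of Dnajc3 -0.65. The other 2 measured probe sets of Dnajc3 gave -0.26 ± 0.33 and 0.06 ± 0.44 there.

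**Figure D5:**
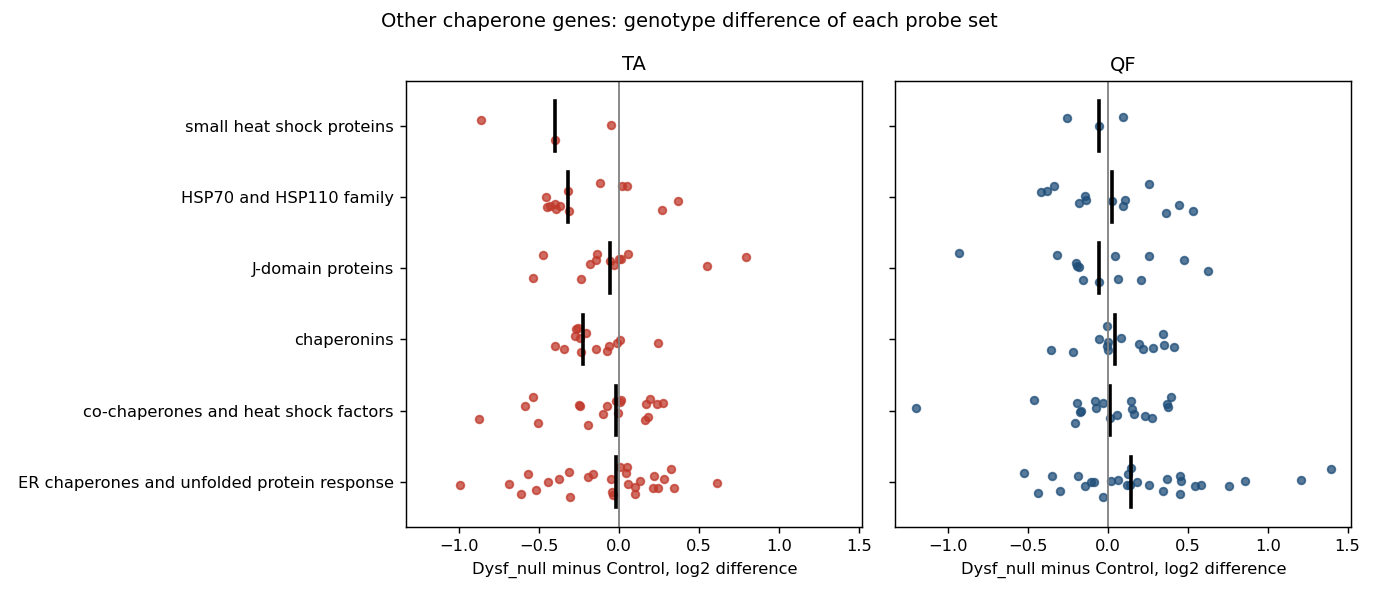
Genotype difference (Dysf_null minus Control, log2 scale, x axis) of each of the 90 probe sets for other chaperone genes, by family, in TA (left) and QF (right), with the family median as a black bar and points spread vertically for visibility. In TA 58 of the 90 lie below 0, and in QF 40 do.

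Genes whose levels ran most like Cryab over the 12 arrays were Uck2 (Pearson r = 0.967), the titin-binding Ankrd2 (0.962), the macrophage marker Cd68 (0.959), the hexokinase gene Hk2 (0.938) and Plekho1 (0.936). Without the 3 Control TA arrays, r over the other 9 was 0.391, 0.151, 0.203, 0.579 and 0.529 in the same order, so the likeness rests on the high Control TA group. For Hspa5 the most alike were Abi1 (0.909), the immunoproteasome gene Psmb9 (0.905), Clic4 (0.892), Polr2d (0.878) and Coa3 (0.876), and without the 3 arrays of Control QF, its low group, their r lay between 0.621 and 0.771. The arrays share one normalization, and these values describe likeness only.

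In a list of Z-disc proteins and titin partners, 4 of 7 measured genes fell in TA: Csrp3 (-2.68 ± 0.24), Ankrd2 (-2.30 ± 0.16), Ankrd1 (-2.25 ± 0.34) and Xirp1 (-1.29 ± 0.16), with limma adjusted p of 0.0119 or less. Of all probe sets tested, limma called 0.407% in TA either way and 0.155% lower. This list was drawn up with earlier results of these data known. Its differences use the same Control_TA arrays as that of Cryab and are not independent of it. Desmin (Des), a client of alphaB-crystallin, gave -0.30 ± 0.16 in TA and did not pass (adjusted p = 1), nor did Actn2 or Ldb3.

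Markers of other cell types moved with genotype beside these genes. Of all probe sets, limma called 0.407% in TA and 0.455% in QF. In TA, 2 of 7 granulocyte markers rose, with summed normalized intensities of 995 to 1177 in Dysf_null and 336 to 514 in Control mice, and 4 of 4 red cell markers rose, with 22725 to 26086 against 11716 to 15660. Of 7 macrophage markers, Cd68 fell in TA and none rose by limma's call, but the others pointed up: the median difference was 0.28, and the sums were 2054 to 2166 in Dysf_null and 1730 to 1937 in Control TA, with no overlap. C1qa (0.60 ± 0.21) and Lyz2 (0.57 ± 0.19) were higher in TA without overlap, and in QF the macrophage median was 0.55. In QF, 1 of 7 granulocyte markers fell, with sums of 332 to 468 in Dysf_null and 659 to 811 in Control mice. Of 4 red cell markers 1 rose there, with sums of 21102 to 27462 against 15831 to 16051. Of 4 lymphocyte markers Thy1 rose in QF, while Cd3g and Cd79a had lower means in Dysf_null and Ptprc a higher one. Of 6 fibroblast and tendon markers, Fmod rose in both muscles, whereas limma without the block called the collagen chaperone gene Serpinh1 in QF only. The sums of the 6 markers were 24889 to 38802 in Dysf_null and 18005 to 26247 in Control TA, and 23942 to 35421 in Dysf_null and 15082 to 22288 in Control QF. With the replicate block Col1a1 and Col1a2 also rose in both muscles, and Col3a1 in QF. The defining markers Itgam (macrophages), Epb42 (red cells) and Cd3e and Cd8a (lymphocytes) were not above the floor on enough arrays to be tested. The part of these cells in the chaperone differences was not tested.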

How the data were processed

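Intensities on a linear scale were deposited, with 1 value for each probe set on each array. Without the lowest and highest 2%, every array's mean lay between 200.1 and 200.2, which is how the authors' scaling shows in the values. The authors' software and background correction are not given in the sources. Of 12488 probe sets, 66 controls were left out. Array medians differed 1.47-fold, so quantile normalization was applied, and values under the 25th percentile (intensity 23.025) were set to it before taking log2. Those above that floor on at least 3 arrays, 10331, went into limma 3.58.1 in R 4.3.3 (means of 4 groups over 12 arrays, residual degrees of freedom 8, variance trend by intensity, two-sided). The number of arrays limits the precision, with an SE of 0.323 for the median probe set. The fit was tested on simulated data.

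Symbols came from the platform annotation (1 symbol for 10833 probe sets, several for 396, none listed for 1193), and 3 older names in the gene lists were updated through RefSeq. Members, lists, rules and tests were chosen with earlier results of these data known. Named were all member probe sets, other chaperones that were called or had up to 4 further smallest p-values per comparison, and the 5 genes most like Cryab and Hspa5. Hspa1a, Hspa1b, Dnajb1, Hsph1, Hspa9 and second probe sets of named genes were added after their values were seen.

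Arrays of the same number in both genotypes of a muscle deviated together from their group means (correlations 0.390, 0.711 and 0.660 in QF, and 0.182, 0.114 and 0.231 in TA), so the numbers were taken to pair arrays within a muscle, from the data and not from the labels. Alternatives were the deposited scaling, a floor at the 10th percentile, no filter or at least 6 arrays, no trend, array weights, that block, each muscle fitted alone, and each array or both QF arrays numbered 2 left out. For comparisons between muscles, the block was the replicate number across all 4 groups. TA and QF arrays of the same number and genotype did not deviate together (correlations -0.141 to 0.123). Promoter letters were searched in Python 3.11.15, which with matplotlib 3.10.9 also made the plots.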

Additional observations from a re-analysis of the deposited data

Results flagged for a closer look

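The genotype difference of Cryab (brighter probe set) was called as differing between the muscles by limma's interaction term: the difference in TA minus that in QF was -1.27 (-1.41 ± 0.14 in TA and -0.14 ± 0.14 in QF). The call was lost in 15 of 20 alternative settings, and the dimmer Cryab probe set, near the floor, gave 0.32 ± 0.51. Cryab was chosen with this contrast in view, so the call is a description and no p-value is given for it.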

How the results depend on the processing

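Of single probe set differences that were called, none changed sign in any alternative. Member probe sets called in TA (2) were 1 with the deposited scaling, without the filter, without the intensity trend and without both QF arrays numbered 2, and 1 to 2 with 1 array left out. Members called in QF (0) were 2 with the replicate block within each muscle and 0 to 0 with 1 array left out. Members called for the interaction (1) were 0 with the deposited scaling, without the filter, without the trend, with array weights and without both QF arrays numbered 2, 2 with the replicate block, and 0 to 1 with 1 array left out. Members called between muscles were 1 in Control and 0 in Dysf_null mice in all settings, the replicate block across all groups included. Other chaperones called in QF (2) were 1 with the deposited scaling, without the filter, with array weights and without both QF arrays numbered 2, 0 without the trend and with the QF arrays fitted alone, 4 with the replicate block, and 1 to 2 with 1 array left out. Other chaperones called in TA (0) were 6 with array weights, 4 with the replicate block, 1 with the TA arrays fitted alone, and 0 with 1 array left out; for the interaction (0) 1 with the replicate block; between muscles in Control mice (0) 1 with array weights, 1 with the replicate block across all groups and 0 to 2 with 1 array left out, 2 being without Control_QF 3. The causes were not tested. Among the members and the other chaperones, the replicate block changed no call other than those named here and in the report; among the genes most like them it added Abi1 and Psmb9 in QF and Cd68 for the interaction, and it added further cell type markers and Z-disc partners. The signal of Hspb1 and of the dimmer Cryab probe set, at or near the floor, limits what can be said of them.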
